A study of Phaseolus vulgaris with 12 samples.

Results

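Dwarf bean genes annotated with 20 or more exons were followed in leaf RNA. A gene was included when its table entry listed at least 20 exons and when it had at least 10 reads in at least 3 of 10 libraries, so the choice used gene structure and a minimum of reads, and no difference between groups. Of 27996 genes in the tables, 594 had 20 or more exons, and 581 of these passed the read minimum. The other 13 stayed under it, and 2 of those had 0 reads in every library. The reference set was the 17239 genes of 2 to 19 exons that passed the same minimum.

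The samples were leaves of the dwarf bean genotype Dwarf messi (Phaseolus vulgaris) in 4 groups. Drought 6PP plants grew from seeds coated with a carrier polymer holding 114 mM 6-pentyl-α-pyrone (6PP), a volatile lactone made by Trichoderma fungi, and had no irrigation for about 16 days. Drought polymer plants grew from seeds with the polymer alone and were dried in the same way. Well-watered 6PP plants had the 6PP coating and were irrigated throughout, and the well-watered polymer group had the polymer alone with the same irrigation, so every plant in the series carried the polymer. Each library was a pool of leaves from 5 plants, with 3 libraries in every group except drought 6PP, where 1 library could be used. The study used 2 growth chambers, and the labels do not say which plants stood in which, so an effect of the chamber cannot be told apart from one of drought. The libraries held between 39974999 and 55648172 reads on genes.

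In a gene with introns, the spliceosome cuts the introns out of the primary transcript and joins the exons. A gene with many exons therefore needs many such cuts for each finished messenger RNA. Reads that lie across a join of exons come from RNA in which that join has been made, and reads on introns come from RNA not yet spliced at that place, from an intron kept in the transcript, or from an unannotated exon. In plants, keeping an intron is a common form of alternative splicing, and drought is one of the stresses under which it has been studied. The share of exon-exon reads also depends on how densely a transcript is packed with joins, so it is compared below with genes of like structure.

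The 581 genes had between 20 and 80 exons, with a median of 23. There were 369 genes with 20 to 24 exons, 114 with 25 to 29, 75 with 30 to 39 and 23 with 40 to 80. Their median exon length was 3952 bases, against 1734 bases in genes of 2 to 19 exons, and their median gene length was 12805 bases, against 3749. Single exons were short, at a median of 158 bases per exon, against 298, and there were 6.07 joins per kilobase of exon, against 2.66. Their median mean TPM (a read level corrected for gene length and library size) was 13.6, against 13.1 in genes of 2 to 19 exons, and 20 of them (3.44%) reached a mean of 100 TPM, against 8.33% of those genes. In reads not corrected for length, their median was 39.4 CPM (gene reads scaled to library size), against 17.9 CPM. They were present on all 11 chromosomes, from 21 genes on chromosome 4 to 71 on chromosome 3. Only 1 transcript was annotated for 408 of them. For the others the listed number may count exons over several transcripts, and so may exceed that of any 1 messenger RNA. Of the 581 genes, 21 overlapped another gene, and 3 had under 95% of their reads placed uniquely. The kit's strand is not stated, so reads of overlapping genes cannot be assigned with certainty.

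The tables give a symbol for 3 of the 581 genes, and identifiers alone for the rest. Pvphot1a (PHAVU_011G070300g, 26 exons and 8 annotated transcripts) names phototropin 1a, a blue-light receptor kinase. PvISA3 (PHAVU_009G033200g, 24 exons) names isoamylase 3, a debranching enzyme of starch breakdown. The third is PSD2 (PHAVU_006G208800g, 21 exons). For the others, no function is given here.

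The leaf label was checked with 8 genes of light harvesting, photosystem I and rubisco, which the study itself names from these samples. Their median level lay between 2239 and 2697 TPM in the 6 well-watered libraries and between 118 and 186 TPM in the 4 drought libraries, so photosynthesis RNA was plentiful in the irrigated leaves and lower in the dried ones. In leaf RNA of mixed cells, fewer cells of a type and less RNA per cell cannot be told apart. A library of well-watered 6PP plants, replicate 1, stood apart in the values described next, and the median changes of read level and of exon-exon share with the coating, and the exon-exon calls, are given with and without it. The other coating values, such as medians by class of exon number or exon length, include it.

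The 581 genes together took 4.29%, 4.01% and 4.02% of all gene reads in the drought polymer libraries, against 3.76%, 3.64% and 3.30% in the well-watered polymer libraries. All 3 drought polymer libraries lay above the well-watered polymer libraries. They took 2.65%, 3.51% and 3.10% in well-watered 6PP plants, where replicate 1 was the lowest of all 10 libraries and replicate 2 lay inside the range of the polymer plants. The drought 6PP library had 3.63%. Exon-exon reads made up 71.5%, 74.4% and 74.7% of their exon reads in the well-watered 6PP libraries, against 77.3%, 78.2% and 77.4% in the well-watered polymer libraries, with no overlap. The drought polymer libraries had 77.0%, 76.7% and 76.5%, and the drought 6PP library had 76.9%. Intron reads were between 4.33% and 4.73% of their gene reads in drought polymer plants and between 4.78% and 5.24% in well-watered polymer plants.

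**Figure D1:**
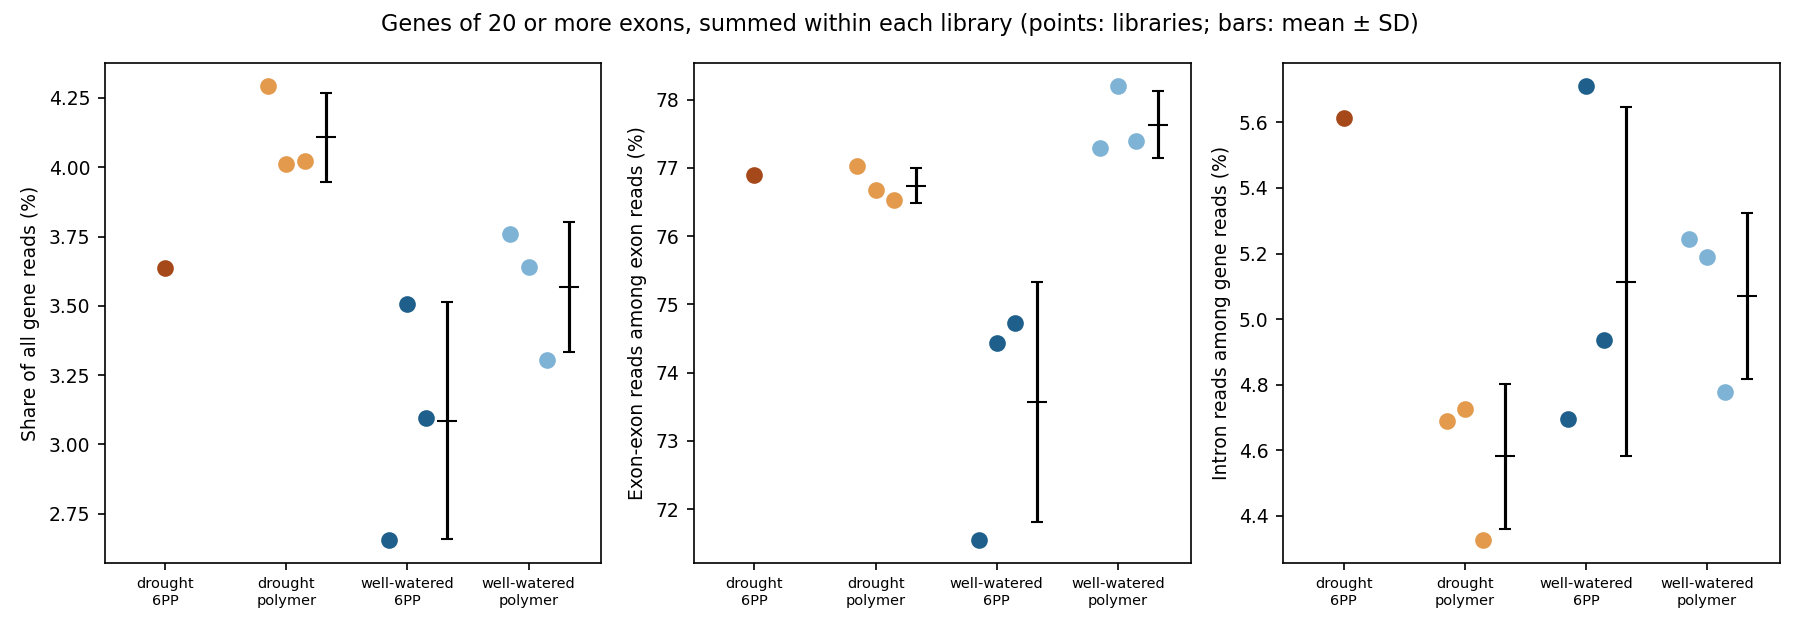
Genes of 20 or more exons summed in each library, as a share of all gene reads, as the share of exon-exon reads among their exon reads, and as the share of intron reads among their gene reads (all in percent). Points are libraries and bars are the mean ± SD of 3 libraries. The axes do not start at 0. The drought polymer libraries are the highest in the first panel (4.01% to 4.29%), and the well-watered 6PP libraries are the lowest in the second (71.5% to 74.7%).

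How drought changed these genes was read from polymer plants, drought against well-watered, with 3 libraries each. Of the 581 genes, 49 were called, 25 higher and 24 lower under drought. A call needed 3 limits to be met in edgeR's quasi-likelihood test: a log2 fold change of 0.6 or more in size, an FDR no higher than 0.01, and p no higher than 0.05 after Bonferroni adjustment. This was 8.43% of the genes, while the share called over all 22398 genes tested was 12.3%, with 5.12% higher and 7.2% lower. Genes of 2 to 19 exons with like mean TPM were called in 12.3% of cases, and those of like exon length in 10.6%. At like read level (CPM) the share was 16.1%. The 3 libraries of each group did not overlap for any of the 49, nor for 68.8% of the 581 genes and 65.9% of all genes. At an FDR of at most 0.05 alone, 321 of the genes passed, or 55.2%, and 56.2% of all genes did.

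The genes of many exons tended to higher read levels under drought. Their median log2 fold change was 0.17, with quartiles of -0.27 and 0.49, and 358 of 581 were positive (61.6%), against 49.6% of all genes. Genes of 2 to 19 exons had a median of -0.04 at like TPM, 0.05 at like read level and 0.07 at like exon length. Among genes with 4000 to under 6000 bases of exon, those of 20 or more exons (207 genes) lay lowest, with a median of 0.05. In that class the median was 0.18 for 10 to 19 exons, 0.12 for 2 to 9 and 0.13 for 1 exon. In the other 3 length classes of 2000 bases or more the genes of 20 or more exons lay highest, at 0.21, 0.22 and 0.27 from short to long. The median over the 581 genes stayed between 0.14 and 0.20 when any 1 library was left out. Under upper-quartile scaling, which moved the median of all genes to -0.10, it was 0.08.

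By number of exons, the share called under drought was 9.21% in genes of 20 to 24 exons, 8.77% in those of 25 to 29, 6.67% in those of 30 to 39, and 0 of 23 in those of 40 to 80. The medians of the log2 fold change in these 4 classes were 0.16, 0.16, 0.16 and 0.54. In the class of 40 to 80 exons, 17 of 23 genes had an FDR of at most 0.05. This FDR was reached by 55.2% of the genes of 20 or more exons and 56.2% of all genes. The fold limit and the FDR limit of 0.01 were passed by 12 of 23, but none passed the Bonferroni limit. The same fold and FDR limits were passed by 28.7% of the genes of 20 or more exons and 36.3% of all genes. Across the border of the rule, the 103 genes of 20 exons had a median of 0.16 and the 144 genes of 19 exons had 0.21.

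**Figure D2:**
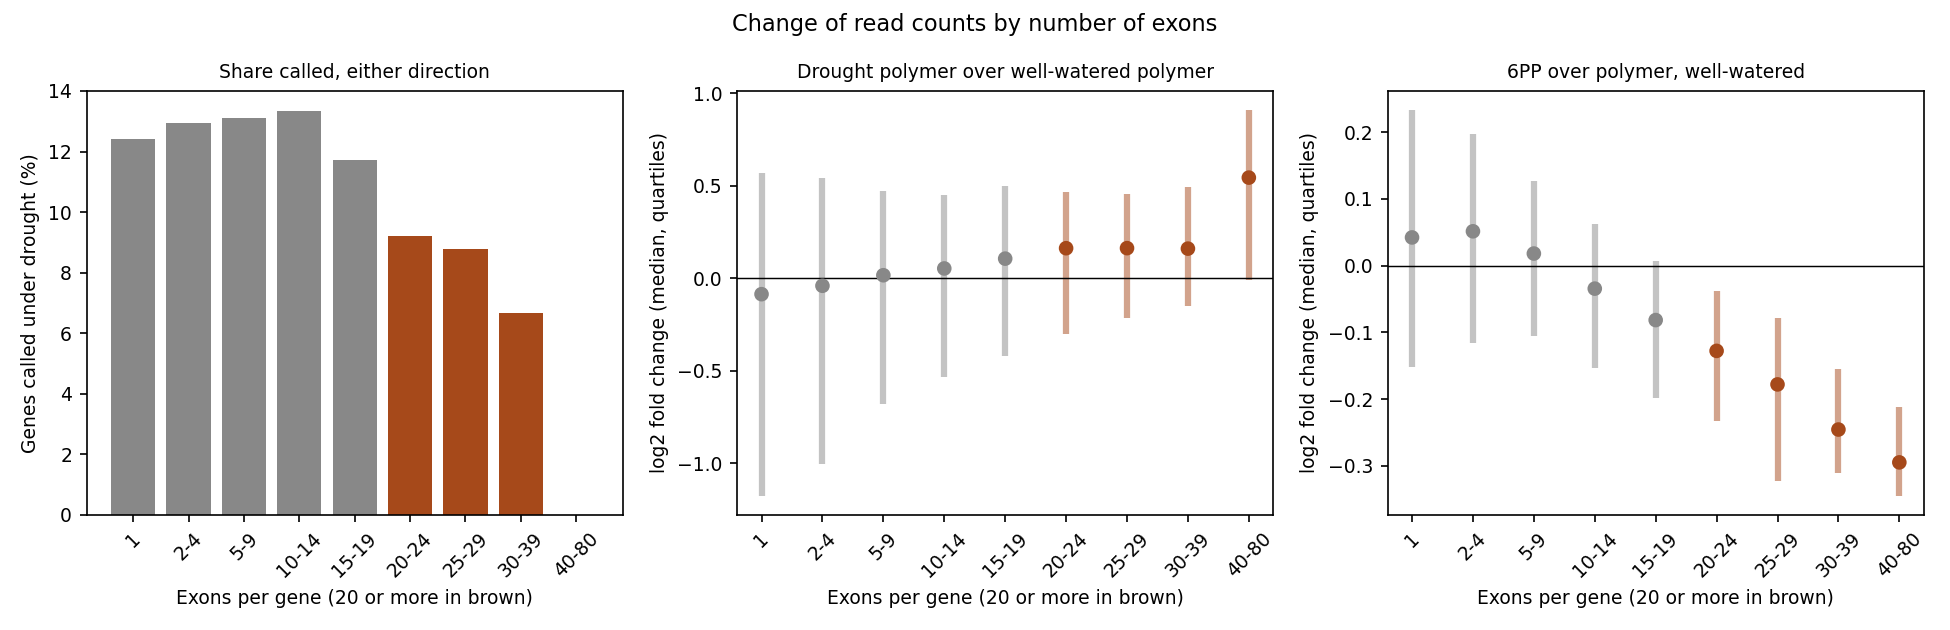
Share of genes called under drought (bars, percent, from 0) and median log2 fold change with quartiles (points and lines), for drought polymer over well-watered polymer and for 6PP over polymer in well-watered plants, in 9 classes of exons per gene. In the classes of 20 or more exons the share called goes from 9.21% to 0%, and the median of the coating comparison goes from -0.13 to -0.29.

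The 5 genes with the most exons were all higher in each drought polymer library than in any well-watered polymer library. PHAVU_010G134100g, with 80 listed exons over 2 annotated transcripts (chromosome 10, 40580601 to 40619302), had 70.6, 80.6 and 92.3 CPM in drought polymer plants, against 44.9, 63.6 and 47.4 CPM in well-watered polymer plants. The groups did not overlap, and the change on the log2 scale was 0.64 ± 0.18 (SE), with an FDR of 0.011 in edgeR's test. PHAVU_009G178400g, with 78 exons, had 37.6, 40.5 and 39.5 CPM, against 23.9, 28.1 and 20.9 CPM. PHAVU_003G119100g, with 67 exons, had 156, 145 and 126 CPM, against 68.7, 64.9 and 52.6 CPM, the largest change of the 5 (1.20 ± 0.21). PHAVU_002G003000g, with 63 exons over 74487 bases of genome, the longest gene of the set, had 277, 265 and 244 CPM, against 129.9, 127 and 105 CPM. PHAVU_006G107000g, with 60 exons, had 144, 147 and 142 CPM, against 121, 99.9 and 83.0 CPM. None of the 5 met all 3 limits, and only PHAVU_003G119100g and PHAVU_002G003000g did so in DESeq2.

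Among the most abundant genes of the set, the direction was mixed. PHAVU_001G123900g, with 33 exons and the highest mean level (259 TPM), had 588, 685 and 681 CPM under drought, against 1376, 1185 and 1196 CPM, or 651 ± 55.3 and 1252 ± 107 CPM (SD, n = 3 each). PHAVU_001G187600g averaged 337 ± 26.7 CPM in drought polymer plants and 643 ± 21.4 CPM in well-watered polymer plants. PHAVU_007G101300g went the other way, with 777 ± 37.9 CPM under drought and 401 ± 35.0 CPM with water. PHAVU_003G062900g had 964 ± 63.9 and 678 ± 28.2 CPM. All 4 had an FDR under 0.01 in edgeR's test (0.000256, 3.02e-05, 6.39e-05 and 0.00634), and none passed the Bonferroni limit. In DESeq2 the first 3 were called.

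Of the genes with a symbol, PvISA3 was also among the 5 most abundant. It had 291, 325 and 271 CPM in drought polymer plants, against 535, 512 and 542 CPM in well-watered polymer plants, without overlap (log2 fold change -0.84 ± 0.12, FDR 8.33e-05, edgeR). PSD2 had 37.3, 34.5 and 34.9 CPM, against 58.3, 60.4 and 64.2 CPM, again lower in every drought library (-0.78 ± 0.10, FDR 6.02e-05, edgeR). Neither passed the Bonferroni limit in edgeR, and both were called in DESeq2. Pvphot1a had 98.1, 119 and 113 CPM, against 144, 110.1 and 131 CPM. Its groups overlapped, and the difference did not pass the test (-0.22 ± 0.14, FDR 0.213, edgeR).

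**Figure D3:**
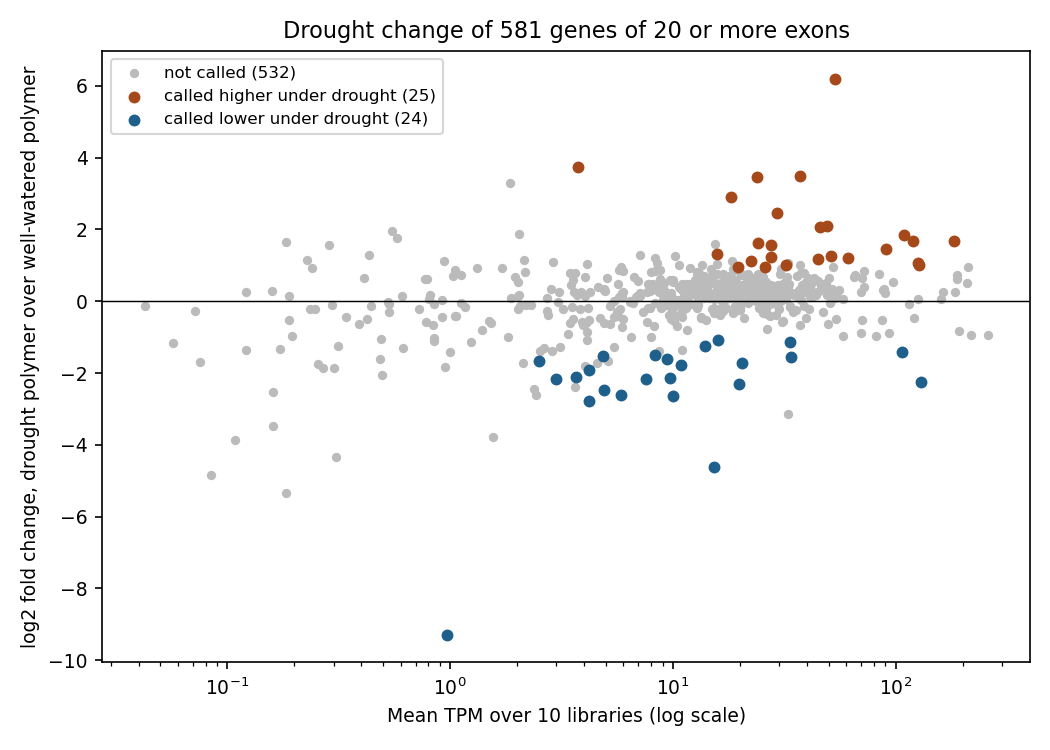
Log2 fold change of each of the 581 genes (drought polymer over well-watered polymer) against its mean TPM over 10 libraries (log axis). Colours mark the 25 genes called higher and the 24 called lower, and the bulk of the genes lies just above 0 (median 0.17).

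The 25 genes called higher had log2 fold changes between 0.95 and 6.20, and the 24 called lower changed by between 1.08 and 9.29 in the downward direction. PHAVU_003G126300g (24 exons, chromosome 3) rose the most. It had 323, 231 and 240.2 CPM in drought polymer plants, against 4.63, 3.59 and 2.57 CPM in well-watered polymer plants, and the groups were far apart (6.20 ± 0.24, FDR 7.49e-09, edgeR). PHAVU_004G025700g (21 exons) had 182, 153 and 164 CPM, against 11.1, 18.8 and 14.4 CPM. PHAVU_002G054300g (21 exons) had 100.4, 84.0 and 68.8 CPM, against 5.78, 9.02 and 7.93 CPM. Every drought polymer library exceeded every well-watered polymer library by several fold in both genes (3.49 ± 0.17 and 3.47 ± 0.23). PHAVU_003G274700g (21 exons) averaged 51.8 ± 5.75 CPM, against 6.97 ± 0.451 CPM. PHAVU_003G2701001g (25 exons) averaged 131 ± 13.3 CPM, against 23.9 ± 1.11 CPM. PHAVU_009G234600g (33 exons) and PHAVU_001G077700g (29 exons) rose by 2.09 ± 0.18 and 2.07 ± 0.17, with a wider spread between drought libraries (215 ± 64.3 and 135 ± 37.9 CPM). PHAVU_009G234600g lost its call when well-watered polymer replicate 1 or 3 was left out, at a value of 2.08 in both fits.

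PHAVU_011G093100g (20 exons, chromosome 11) was called higher at a low level. Its libraries had 31.7, 21.5 and 21.3 CPM under drought, against 2.60, 1.75 and 1.23 CPM. The log2 fold change was 3.74 ± 0.36, and the call was lost in 4 of the 6 fits that left out a library, at values between 3.52 and 3.83 (without replicate 1 or 2 of drought polymer, and without 2 or 3 of well-watered polymer). In the well-watered libraries most of its few reads lay on introns, as given below.

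PHAVU_001G166000g (23 exons, chromosome 1) fell the most. It had 1 read in the 3 drought polymer libraries together, against 879 reads in the 3 well-watered polymer libraries, or 0, 0 and 0.0241 CPM against 11.9, 2.16 and 5.87 CPM. Scaled to library totals, the drought level was 0.125% of the well-watered one, with a 95% interval of 0.00317% to 0.70% (exact Clopper-Pearson, counting error only). Only 90.2% of its reads were placed uniquely, so some may belong to a near copy. Its call was lost without any 1 of the drought polymer libraries, and without well-watered polymer replicate 3. Of the 13 genes under the read minimum, 3 have neighbouring identifiers on chromosome 1, PHAVU_001G165700g (24 exons), PHAVU_001G166300g (24 exons) and PHAVU_001G166500g (23 exons), and none had more than 27 reads in a library.

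PHAVU_008G279700g (20 exons) had 2.47, 3.82 and 4.71 CPM in drought polymer plants, against a mean of 90.2 ± 4.26 CPM in well-watered polymer plants (SD, n = 3), without overlap. It fell by 4.63 ± 0.22 on the log2 scale (FDR 2.15e-08, edgeR). PHAVU_009G082500g (27 exons) averaged 2.17 ± 0.456 CPM, against 15.0 ± 4.55 CPM, and PHAVU_005G173700g (21 exons) averaged 8.16 ± 3.38 CPM, against 50.6 ± 9.74 CPM. Both lost their call without drought polymer replicate 1 or 2, and PHAVU_005G173700g also without well-watered polymer replicate 1 or 2, at values between -2.79 and -2.46. PHAVU_011G040700g (26 exons) averaged 4.14 ± 0.712 CPM, against 23.2 ± 5.20 CPM. PHAVU_002G264200g (20 exons) had 16.2, 19.9 and 20.8 CPM, against 113, 86.8 and 83.3 CPM. The other pair overlap a neighbouring gene each, so their reads may be shared with it. PHAVU_005G013500g (27 exons) averaged 8.72 ± 2.12 CPM, against 53.5 ± 4.56 CPM, and PHAVU_003G193800g (23 exons) averaged 104 ± 11.4 CPM, against 492 ± 53.5 CPM.

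**Figure D4:**
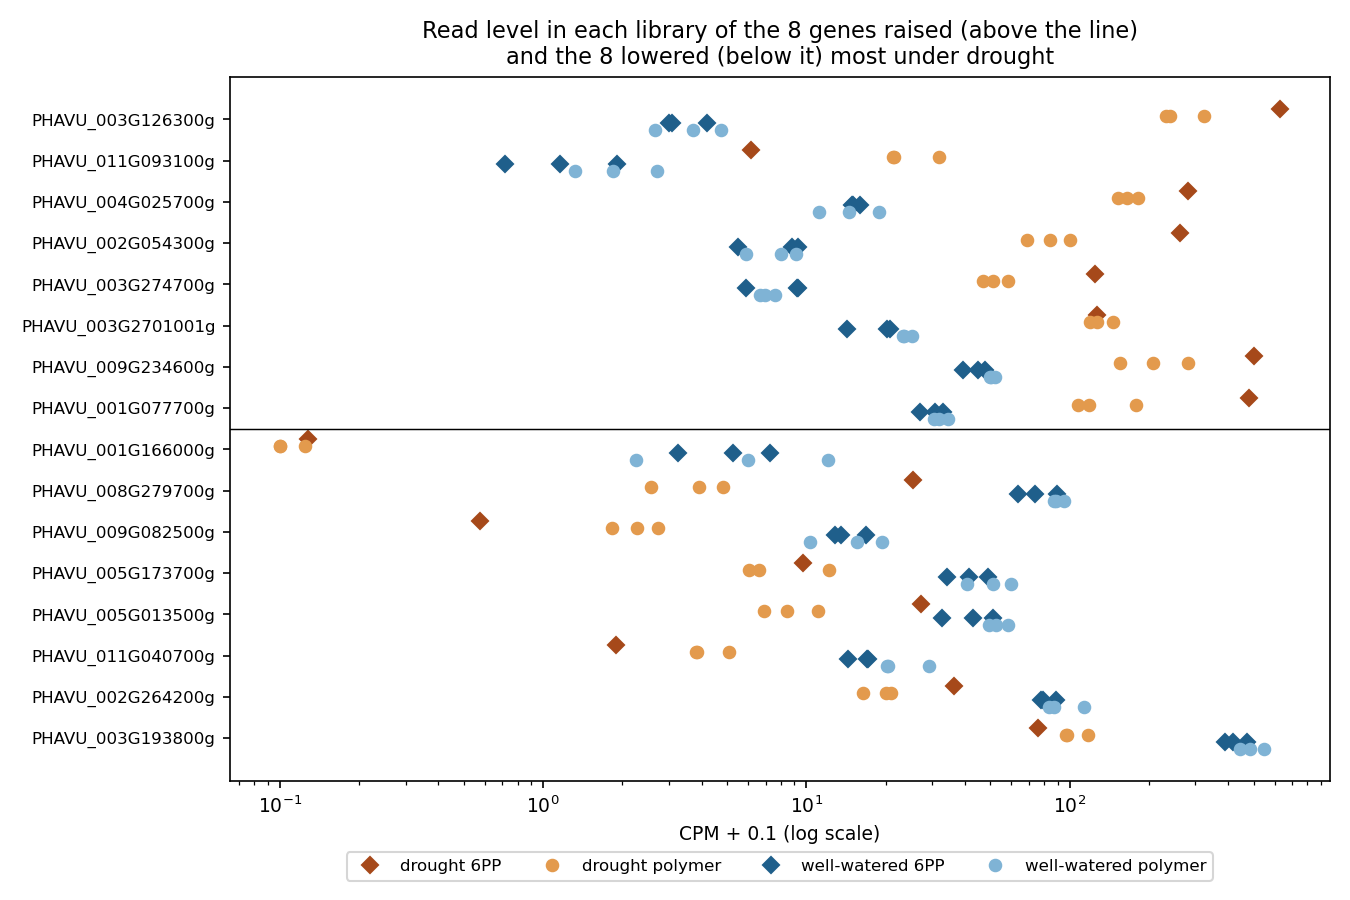
CPM + 0.1 (log axis) in each of 10 libraries for the 8 genes called higher and the 8 called lower under drought with the largest log2 fold changes. Diamonds are 6PP libraries and circles polymer libraries. Drought and well-watered polymer libraries are apart for all 16 genes, which the choice of genes required. The 1 drought 6PP library often lies beyond the drought polymer libraries, as for PHAVU_003G126300g (628 CPM against 231 to 323 CPM).

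The number of calls depended on the libraries and the test. Leaving out 1 library gave 26 to 37 calls. The lowest was 26, without replicate 2 of drought polymer. The call count was 28 when its replicate 1 was dropped, and 30 when the third well-watered polymer library was. DESeq2 called 137 of the genes, 78 higher and 59 lower, with all 49 among them. The share called over all genes is not given here for DESeq2 or for the fits without 1 library. These counts therefore do not show whether the genes of many exons were called more or less often than all genes.

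Whether drought changed how much of their RNA was unspliced was read from the ratio of intron to exon reads. For this ratio 540 of the 581 genes had enough reads. Of these, 16 were called at an FDR of at most 0.05 (limma), 3 raised and 13 lowered under drought, or 2.96%. Over all 14376 genes tested, 4.4% were called, 1.42% raised and 2.98% lowered. The reference genes were called in 3.23% of cases at like TPM, 2.80% at like exon length and 5.49% at like read level (CPM). Whether the many-exon genes were called more or less often thus depended on the match. After each library was centred on its own median, 20 of the genes were called (3.70%), 8 raised and 12 lowered, while 5.72% of all genes were. The centred share in the reference genes was 4.16% at like TPM, 3.61% at like exon length and 7.33% at like read level. As a share of gene reads, the intron reads of the 581 genes changed by a median of -0.23 percentage points, against -0.16 in genes of like TPM. The gap between these medians was -0.07, and it changed sign without drought polymer replicate 3 (0.021) or without well-watered polymer replicate 1 (0.081). Of the 16 genes, PHAVU_003G126300g, PHAVU_011G093100g, PHAVU_003G193800g and PHAVU_009G234600g were also called for their read level. Without 1 drought polymer replicate, 8, 10 and 7 of the genes were called (without replicate 1, 2 and 3).

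The intron change with the smallest FDR was in PHAVU_003G076300g (28 exons, chromosome 3). Introns held 2.83%, 2.55% and 2.01% of its reads in drought polymer plants, against 15.4%, 13.3% and 12.2% in well-watered polymer plants. The groups were far apart on 4672 to 12520 reads per library (log2 ratio -2.64 ± 0.19, FDR 4.29e-11, limma). The drought 6PP library, at 3.29%, lay near the drought polymer libraries, and the well-watered 6PP libraries had 9.62%, 14.5% and 14.6%. Its read level was 116 ± 4.71 CPM under drought and 226 ± 15.8 CPM with water.

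In PHAVU_011G093100g introns held 4.21%, 7.31% and 6.80% of the reads in drought polymer plants, against 100%, 84.2% and 69.8% in well-watered polymer plants. The well-watered values rest on 109, 101 and 53 reads. The groups did not overlap, and the log2 ratio changed by -5.95 ± 0.60 (FDR 2.94e-08, limma). PHAVU_009G146300g (27 exons) had 24.8%, 25.9% and 26.2% under drought, against 38.5%, 38.5% and 38.8% with water, while its read level was 52.5 ± 1.63 CPM in drought plants and 54.8 ± 6.98 CPM in well-watered plants. Its intron share was thus lower in all drought polymer libraries at levels that overlapped between the groups (-0.87 ± 0.16, FDR 0.000681, limma).

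Intron reads were raised in 3 genes. PHAVU_009G234600g, which also rose in level, had 7.50%, 6.65% and 5.75% under drought, against 1.48%, 3.87% and 3.40% with water. PHAVU_008G223200g (24 exons) had 41.4%, 40.2% and 36.9%, against a mean of 28.0% ± 2.61 (SD, n = 3). PHAVU_006G120900g (26 exons) averaged 13.5% ± 0.55, against 8.76% ± 1.07 (SD, n = 3 each). The groups did not overlap in any of the 3, and the last 2 lost their call in 5 of 6 fits that left out a library.

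For exon-exon reads, 541 of the 581 genes could be tested under drought, and 3 were called, while 0.93% of all 15155 genes were. The share of exon-exon reads among exon reads of the 581 genes changed by a median of -1.16 percentage points, against -1.27 in genes of like TPM. The gap of 0.11 between these medians was -0.12 without well-watered polymer replicate 3, so it had no settled sign. PHAVU_005G0791000g (21 exons) was raised, with 73.9%, 66.0% and 67.9% in drought polymer plants, against 52.4%, 41.9% and 39.5% in well-watered polymer plants. PHAVU_008G223200g was lowered, with 68.4%, 66.3% and 67.8%, against 84.0%, 86.3% and 84.6%, and so had more intron reads and fewer exon-exon reads together. PHAVU_008G240600g (21 exons, 186 TPM) was lowered by a small step, with 94.4%, 94.6% and 94.0%, against 96.2%, 96.3% and 96.1%. The call of PHAVU_008G240600g was lost in 5 of 6 fits that left out a library and with centred libraries. Leaving out the first well-watered polymer library gave 14 calls.

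The effect of the 6PP coating with water was read from well-watered 6PP plants against well-watered polymer plants, with 3 libraries each. No gene of the 581 was called for its read level, and the share called over all genes was 0% (edgeR). DESeq2 called 0 of the 581 and 4 of all genes. The smallest FDR among the 581 was 0.813. At an unadjusted p under 0.05 there were 90 of the genes, or 15.5%, against 5.5% of all genes. The 3 libraries of each group did not overlap for 91 of the genes (15.7%), 88 of them lower in 6PP plants, while 10.5% of all genes had no overlap.

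Though no single gene passed, the genes of many exons leaned to lower levels in 6PP plants. Their median log2 fold change was -0.16, and 500 of 581 were negative, against a median of 0.00 in genes of like TPM and -0.09 in genes of like exon length. By library, the median distance of the 581 genes from the well-watered polymer mean was -0.34, -0.00 and -0.15 on the log2 scale in the 6PP libraries, against 0.06, 0.02 and -0.08 in the polymer libraries themselves. The groups overlapped, because 6PP replicate 2 lay among the polymer libraries, and replicate 1 was the farthest away. Without 6PP replicate 1 the median was -0.07, and without 6PP replicate 2 it was -0.24. The spread between libraries (0.14, pooled SD of the library medians) was thus nearly as large as the median itself.

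The median lean grew with the number of exons and with exon length, though the trend with length differed between libraries. The medians of the log2 fold change were -0.13, -0.18, -0.25 and -0.29 in genes of 20 to 24, 25 to 29, 30 to 39 and 40 to 80 exons, and the 144 genes of 19 exons had -0.10, the same as the 103 genes of 20 exons. Among genes with 4000 to under 6000 bases of exon, the median was -0.20 for 20 or more exons, -0.15 for 10 to 19, -0.10 for 2 to 9 and -0.11 for 1 exon. In genes with 2000 to under 3000 bases of exon it was -0.07 for 20 or more exons and 0.01 for 1 exon. In all 4 length classes of 2000 bases or more, the genes of 20 or more exons had the lowest median, and among their 6PP libraries replicate 1 was lowest and replicate 2 highest. From the shortest to the longest class, their median distance from the well-watered polymer mean went from -0.18 to -0.56 in 6PP replicate 1. It went from -0.08 to -0.25 in 6PP replicate 3 and stayed between -0.03 and 0.03 in 6PP replicate 2. In polymer replicates 1, 2 and 3 it went from 0.03 to 0.10, 0.00 to 0.05 and -0.03 to -0.14. A trend with length was thus absent from a 6PP library and present in polymer libraries.

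The 3 genes with the smallest p in this comparison were all lower in 6PP plants. PHAVU_009G196800g (28 exons) had 77.7, 95.5 and 100.2 CPM in 6PP plants, against 123, 131 and 124 CPM in polymer plants. PHAVU_008G199800g (30 exons) had 38.8, 54.9 and 45.5 CPM, against 62.8, 67.0 and 63.9 CPM. PHAVU_002G127400g (21 exons) had 26.1, 44.5 and 38.1 CPM, against 60.8, 56.9 and 51.7 CPM. The groups did not overlap in any of the 3, which the choice by p made likely. Each had an FDR of 0.813 in edgeR's test, which does not pass.

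The exon-exon reads did differ with the coating. Of 541 genes tested, 176 were called (limma, FDR of at most 0.05), 174 of them with a lower ratio of exon-exon to other exon reads in 6PP plants. This was 32.5% of the genes, while 17.4% of all 15155 genes tested were called, and 17.1% of all genes tested were called downward. Genes of 2 to 19 exons were called in 13.5% of cases at like TPM, and in 23.6% at a like number of joins per kilobase. On the log2 ratio that was tested, the median change of the 541 genes was -0.42. Genes of 2 to 19 exons had -0.28 at like TPM, -0.19 at like exon length and -0.40 at like joins per kilobase. The share of exon-exon reads changed by a median of -4.06 percentage points over the 581 genes, against -2.70 at like TPM and -3.01 at a like number of joins per kilobase. Without 6PP replicate 1 the median was -2.85, and the gap from genes of like TPM was -0.65 in place of -1.37. The libraries did not overlap for 168 of the 174 genes, but these were called on the same libraries, so this is no separate support.

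This difference was shared by the libraries as a whole. Over all genes, exon-exon reads were 49.1%, 49.9% and 49.9% of exon reads in well-watered 6PP plants, against 51.3%, 53.9% and 53.6% in well-watered polymer plants. After each library was centred on its own median, 9 of the 541 genes were called. Of these, 5 had a higher and 4 a lower ratio, while 1.98% of all genes were called. The centred median log2 ratio of the 541 genes was -0.18 in place of -0.42. The centred median of the reference genes was nearly the same at like joins per kilobase (-0.16). It was -0.04 at like TPM and 0.05 at like exon length. Without 6PP replicate 1 there were 45 calls, and without polymer replicate 2 there were 88. The part of RNA quality or library making in this shift was not tested.

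Examples of these genes were chosen after their values were seen, by the smallest p in each direction. In PHAVU_011G124300g (25 exons) exon-exon reads were 84.6%, 87.6% and 88.9% of exon reads in 6PP plants, against 92.8%, 93.8% and 92.8% in polymer plants. In PHAVU_002G105000g (20 exons) they were 70.3%, 73.4% and 75.9%, against 81.6%, 83.0% and 82.2%. In PHAVU_008G240600g they were 92.7%, 94.0% and 94.4%, against 96.2%, 96.3% and 96.1%. Of the 2 genes with a higher ratio, PHAVU_005G138900g (22 exons, also called higher under drought) had 92.2%, 91.0% and 90.6%, against 85.3%, 88.0% and 87.0%, and PHAVU_010G095600g (20 exons) had 79.2%, 72.4% and 72.1%, against 63.4%, 67.3% and 70.3%. In all 5 genes the 6PP libraries lay wholly to one side of the polymer libraries, but the genes were chosen by p on these libraries, so this adds no support. PHAVU_010G095600g lost its call without 6PP replicate 1. The intron ratio gave no call with the coating in the 540 genes (limma), and 0% of all genes were called. At an unadjusted p under 0.05 there were 27 of the 540 genes, or 5%, against 4.4% of all genes. Without well-watered polymer replicate 1, 1 of the genes was called.

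**Figure D5:**
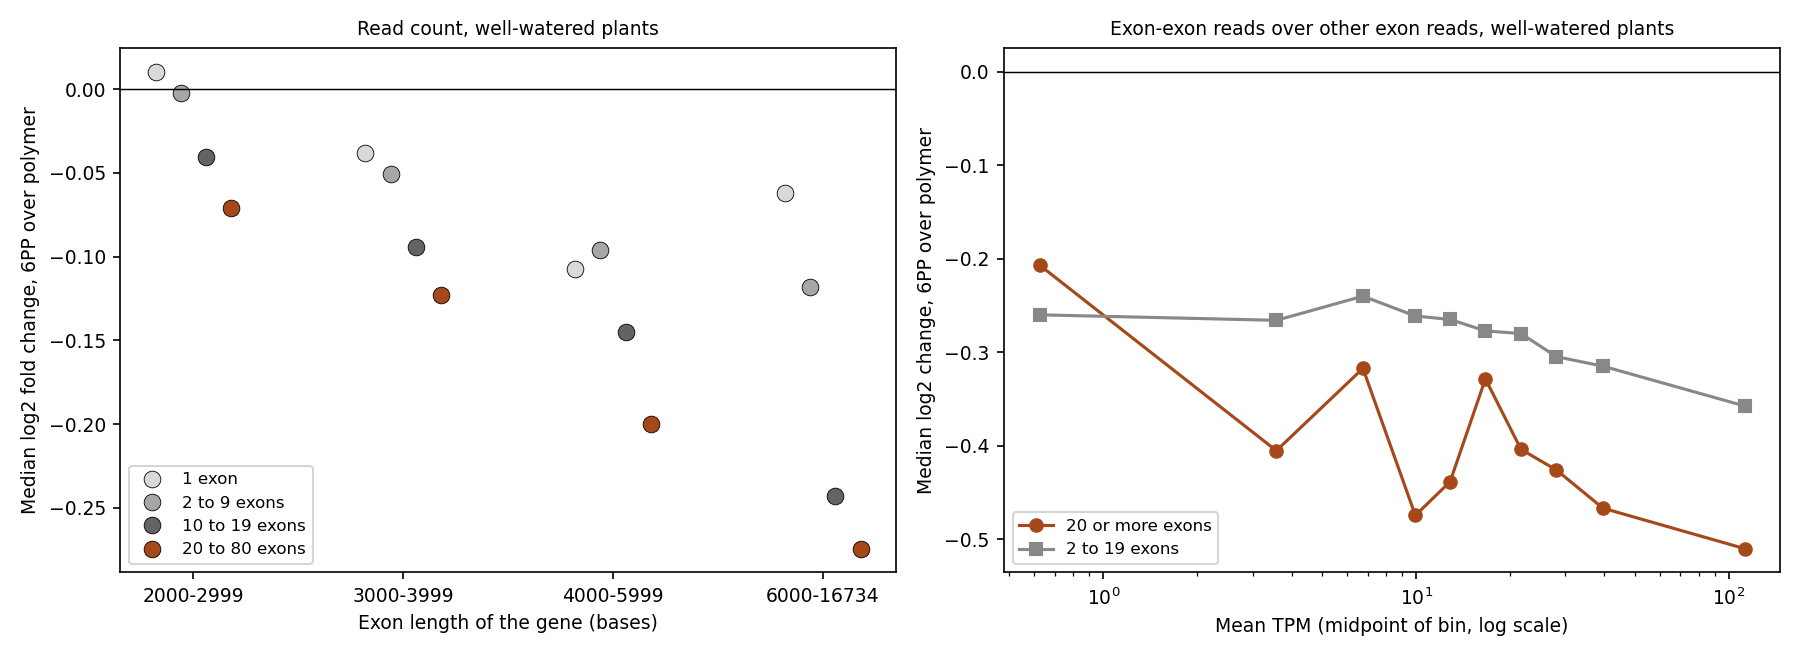
Well-watered 6PP plants over well-watered polymer plants. The first panel gives the median log2 fold change of read counts by exon length (bases) in 4 classes of exon number, and the second the median log2 change of the ratio of exon-exon to other exon reads against mean TPM (log axis) in 10 bins. Genes of 20 or more exons lie lowest in each length class (-0.07 to -0.27), and below the genes of 2 to 19 exons in 9 of the 10 bins.

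Under drought, the coating is described without a test, since 1 drought 6PP library could be used. The 581 genes lay at a median distance of -0.14 on the log2 CPM scale from their own drought polymer mean, against -0.10 in genes of like TPM. There were 174 genes above all 3 polymer libraries, 301 below them and 106 within their range. As shares, 29.9% of the genes were above and 51.8% below, against 35.5% above and 44.0% below over all genes. Past a distance of 0.6, 53 were above and 121 were below, together 29.9%, against 43.4% of all genes. The median stayed between -0.15 and -0.13 when any drought polymer library was left out, and it was -0.07 with RLE scaling and -0.37 on log2(TPM + 1). Exon-exon reads were 46.4% of exon reads over all genes in this library, the lowest of the 10, and intron reads were 7.997% of its gene reads, against 5.28% to 6.08% in the drought polymer libraries. For the 581 genes alone, intron reads were 5.61%, against 4.33% to 4.73%. The part of these library differences in the distances was not tested.

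For the genes called under drought, the drought 6PP library lay on either side of the polymer libraries. Of the 25 called higher, 10 were above all drought polymer libraries, 11 below and 4 within, and of the 24 called lower, 6 were above, 15 below and 3 within. The same drought polymer libraries entered the calls, and the split over all genes called under drought is not given here. PHAVU_001G077700g had 481 CPM, against 178, 118 and 108 CPM in drought polymer plants. PvISA3 had 120.0 CPM, against 291, 325 and 271 CPM. Among the largest distances upward, PHAVU_008G245600g (22 exons) had 10.1 CPM, against a mean of 0.428 ± 0.243 CPM (SD, n = 3), PHAVU_008G279700g had 25.4 CPM, against 2.47, 3.82 and 4.71 CPM, and PHAVU_007G198600g (20 exons) had 93.4 CPM, against 20.6, 17.7 and 19.5 CPM. Among the largest downward, PHAVU_003G160000g (22 exons) had 0.0558 CPM, against 1.72, 1.18 and 2.63 CPM, PHAVU_003G264400g (28 exons) had 0.279 CPM, against 1.91, 2.83 and 2.41 CPM, and PHAVU_008G180300g (22 exons) had 0.782 CPM, against 4.34, 4.76 and 4.32 CPM. These are values of 1 library, with no replicate check.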

How the data were processed

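Leaf RNA of 12 samples was sequenced as paired reads. Trimming and mapping were done by the authors with CLC Genomics Workbench. They deposited raw counts of gene, exon, exon-exon and intron reads, with TPM values computed by the authors. The study's methods name the BAT93 genome. The tables name no assembly, and coordinates are as listed.

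Of the drought 6PP files, replicate 1 held 12 tables with other identifiers, and replicate 2 held 2 tables, of which the first held 1033823623 reads and the second had the same values as replicate 3 throughout. Replicates 2 and 3 were counted as 1 library, and the other tables were not used.

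Counts of gene reads of 10 libraries were fitted with edgeR 4.0.16 in R 4.3.3 (TMM, filterByExpr, 22398 genes, 4 group means, Benjamini-Hochberg adjustment). Log2 ratios of intron to exon reads and of exon-exon to other exon reads (0.5 added to each) were tested with limma 3.58.1. Its depth trend and precision weights were added to the planned test after simulated data showed too many false calls. Genes of 2 to 19 exons were weighted to the TPM of the many-exon genes over 10 bins. DESeq2 1.42.0, RLE and upper-quartile scaling, other filters, exon and unique reads, log2(TPM + 1), log2(TPM + 0.1) and each library left out were alternatives. The members and lists were chosen with earlier results of these data known.

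Genes named are the 5 with most exons, the 5 of highest mean TPM, the 8 called higher and 8 lower with the largest drought change and no overlap, the 3 smallest p for the coating, 3 each way for each drought share, every gene with a symbol, and the 3 highest and 3 lowest distances of the drought 6PP library. Libraries are pools of 5 plants called biological replicates in the labels.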

Additional observations from a re-analysis of the deposited data

Results flagged for a closer look

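In 3 of the genes named, the 6PP library moved one way from the polymer libraries under drought and all 3 6PP libraries moved the other way with water. The difference was not tested, since drought 6PP had 1 library. PHAVU_009G234600g lay 1.27 above the drought polymer mean on the log2 CPM scale (501 CPM, against 282, 207 and 155 CPM), and had 44.7, 47.8 and 39.3 CPM in well-watered 6PP plants, against 50.0, 51.8 and 49.6 CPM in well-watered polymer plants. PHAVU_005G138900g lay 0.73 above (315 CPM, against 188, 194 and 186 CPM), and had 60.4, 77.5 and 69.7 CPM with water, against 87.8, 78.1 and 81.5 CPM. PHAVU_011G124300g lay 0.44 above (282 CPM, against 220.0, 206 and 199.8 CPM), and had 154, 153 and 153 CPM with water, against 168, 166 and 161 CPM.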

How the results depend on the processing

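Of 274 values under alternatives, 239 were close to the main value. These were call counts of similar size, or medians that moved by no more than the spread between libraries. A count of similar size can hide genes that crossed a limit. Among the 239 were 34 drought calls against 49, and 231 exon-exon calls with the coating against 176. Also among them, 3 medians had the other sign (the exon-exon share distance under drought, -0.124 without well-watered polymer replicate 3, and the coating's intron share, 0.0266 with all libraries, at -0.239 without 6PP replicate 2 and -0.0732 without well-watered polymer replicate 3). None of the 508 values for single genes changed sign. For drought calls (49), DESeq2 gave 137, limma on log2(TPM + 1) 24 (17 higher, 7 lower) and on log2(TPM + 0.1) 23, an FDR of at most 0.05 alone 321, and genes of 25 or more exons 15. Leaving out 1 library gave 26 to 37. For the intron ratio under drought (16), an FDR of at most 0.01 gave 6, 25 or more exons 7, and leaving out 1 library 7 to 17. With the coating it gave 0 to 1 calls. For the exon-exon ratio under drought (3), 25 or more exons gave 0, and leaving out 1 library 2 to 14. With the coating (176), centred libraries gave 9, only the groups compared 101, 25 or more exons 79, an FDR of at most 0.01 43, and leaving out 1 library 45 to 231. The drought median was 0.0775 under upper-quartile scaling. Its distance from genes of 2 to 19 exons (0.21) was 0.12 on log2(TPM + 1), 0.12 at like read level and 0.10 at like exon length. The intron share distance under drought (-0.07 percentage points) ran from -0.0882 to 0.0810 (0.0205 without drought polymer replicate 3), and with the coating (0.12) from -0.0454 to 0.198, over single libraries left out, and the second was 0.0140 at like exon length. The exon-exon share distance under drought (0.11) was 0.37 at a like number of joins per kilobase. The drought 6PP library's median distance was -0.0733 with RLE, -0.17 with upper quartile, -0.37 on log2(TPM + 1) and -0.19 for 25 or more exons. The cause of these shifts was not tested. Centring, 1-transcript genes, overlaps, joins and exon length were added after seeing the data.

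Same-numbered replicates did not deviate together in every pair (correlations from -0.09 to 0.16), so the numbers were not taken as pairs. With the replicate number as a block, 39 of the genes were called under drought, 17 for the intron ratio and 162 for the coating's exon-exon ratio. Replicates are few and counts of single genes at low level carry wide counting error.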
